A study of Mus musculus with 6 samples.

Results

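The 39 protein-coding Hox genes of the mouse were followed by cluster and paralog number in bulk RNA-seq of aortas with and without deletion of the transcription factor gene Prdm16 in smooth muscle. They were taken by name and biotype from a table of 55487 genes, with no use of their levels, and comprise 11 genes of HoxA, 10 of HoxB, 9 of HoxC and 9 of HoxD. The 3 Control mice were Myh11-CreERT2+; Prdm16 W/W and the 3 iSM KO mice were Myh11-CreERT2+; Prdm16 F/F, so that Cre and tamoxifen were common to both groups and the floxed exon 9 was the only planned difference. All were littermates on a C57BL/6 background, and all were male because the Cre transgene lies on the Y chromosome. They received tamoxifen from 8 weeks of age for 10 days, and the aorta was taken 60 days after a washout of 2 weeks and stripped of its adventitia. The Myh11 promoter drives Cre in smooth muscle, so endothelial and other cells of the vessel kept Prdm16. The length of aorta that was dissected is not given in the sources used here, and each library is a sum over the tissue, so no level can be placed along the vessel.

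Hox genes encode homeodomain transcription factors that lie in 4 clusters, and genes of the same number in different clusters are paralogs. Within a cluster the low-numbered genes are switched on earlier and farther toward the head of the embryo, the high-numbered genes later and farther toward the tail, and many adult mesenchymal cells, vascular smooth muscle included, keep the pattern of the body level they came from. Polycomb proteins hold silent Hox genes off, Trithorax proteins keep active ones on, retinoic acid sets the anterior limits, and the Pbx, Meis and Pknox (Prep) homeodomain proteins bind DNA together with Hox proteins.

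On the GRCm38 (mm10) build the clusters lie at chr6:52155590-52260880 (HoxA, minus strand), chr11:96194316-96368256 (HoxB), chr15:102921103-103036852 (HoxC) and chr2:74668310-74765142 (HoxD), the last 3 on the plus strand. Libraries held 24911609 to 40460467 counts, of which 4492 to 8457 fell on Hox genes. Prdm16 was counted at 183, 223 and 179 CPM (counts scaled to the size of the library) in the Control libraries and at 93.8, 113 and 79.8 in the iSM KO libraries, a log2 fold change of -1.03 ± 0.14 (SE; adjusted p = 0.00265, edgeR), which checks the labels. Each adjusted p given for edgeR is from its quasi-likelihood test with Benjamini-Hochberg adjustment over the 16565 genes tested. The 7 smooth muscle markers summed to 22400 to 27400 CPM in every library. One of them, Myocd, rose (log2 fold change 0.65, adjusted p = 0.0109, edgeR), as did 1 of the 4 neuron markers, Tubb3, from a level of 1.33 to 1.58 CPM in Control (log2 fold change 1.5, adjusted p = 0.00622, edgeR). The 6 endothelial markers summed to 844, 983 and 477 CPM in Control and 251, 451 and 757 CPM in iSM KO, and the 6 fibroblast markers to 200, 109 and 136 CPM and 72.9, 82.2 and 113 CPM. The adipocyte sum was 4.90, 54.3 and 51.8 CPM in Control 1 to 3 and 2.24 to 4.76 CPM in iSM KO. In Control 3, Ucp1 gave 33.0 CPM of this sum. Of the 5 adipocyte markers, Adipoq, Plin1 and Cidec passed the adjusted threshold as lower in iSM KO with edgeR and with DESeq2 (adjusted p 0.000613 to 0.0146). None of the 3 passed with limma-voom (adjusted p 0.0941 to 0.251), and Adipoq was tested only through its Control counts. In bulk tissue fewer cells of a type and less RNA per cell cannot be told apart. The part of these marker differences in the changes of Tril, Meis3 and Cyp26b1 was not tested.

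Summed by paralog group, Hox levels in the aorta were highest in groups 2 to 10, with HoxA and HoxB above HoxC and HoxD. Group 1 was also counted, at a lower summed level than any of groups 2 to 10. Levels are compared between genes as CPM per kilobase (kb) of annotated exon. Counts were found in at least 1 library for 35 of the 39 genes. The remaining 4, Hoxb1, Hoxb13, Hoxd1 and Hoxd12, had 0 counts in all 6 libraries, and 3 counts in a library would have been 0.0736 to 0.126 CPM. A count over 10 in all libraries of a group, the condition for testing, was met by 27 members, each of them through both groups. Beside these 4, the other untested members were Hoxa13, Hoxc11, Hoxc12, Hoxc13, Hoxd3, Hoxd10, Hoxd11 and Hoxd13, which reached at most 37 counts in a library. Floors and intervals of single values cover counting error only.

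**Figure D1:**
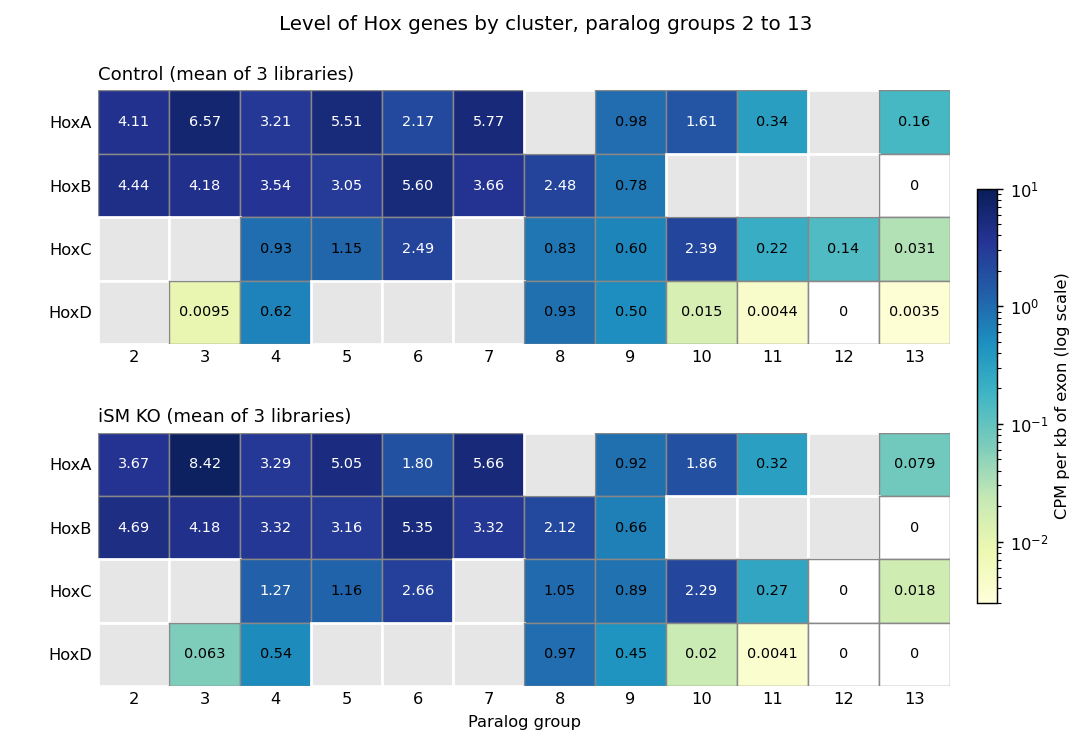
Mean level of the Hox genes of paralog groups 2 to 13 in Control (upper grid) and iSM KO (lower grid), in CPM per kb of exon, by cluster (rows) and paralog group (columns). Grey cells have no gene in the mouse and white cells hold 0 counts. HoxA and HoxB are dark from group 2 to group 7, Hoxc6 (2.49) and Hoxc10 (2.39) lead HoxC in Control, and HoxD is pale beyond Hoxd9.

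The highest member was Hoxa3, an anterior gene that patterns pharyngeal arch derivatives, at 6.57 ± 1.04 CPM per kb in Control (SD, n = 3). It was followed by Hoxa7 (5.77 ± 0.61), Hoxb6 (5.60 ± 0.95) and Hoxa5 (5.51 ± 0.78), whose ranges over the libraries overlapped from one to the next. Hoxa5 is known for its part in lung and cervicothoracic patterning, and Hoxa7 and Hoxb6 for thoracic segments. These 4 lay above 65.0% to 70.1% of the 13155 tested protein-coding genes with a known length, whose median was 3.40 CPM per kb. Next came Hoxb2 (4.44 ± 0.50), Hoxb3 (4.18 ± 0.83) and Hoxa2 (4.11 ± 0.49), which act in the hindbrain and its neural crest. Hoxa5 (lowest library 4.95) and Hoxb2 did not overlap, but Hoxb3 reached 5.07 and overlapped Hoxa5. Hoxb7 (3.66 ± 0.22) and Hoxb4 (3.54 ± 0.17) followed, each overlapping the member before it. Hoxa4 (3.21 ± 0.15) did not overlap Hoxb4, while Hoxb5 (3.05 ± 0.60, range 2.61 to 3.73) overlapped both. Of 26 neighbouring pairs from Hoxa3 down to Hoxc11, 23 overlapped in range, so that most of the order was not resolved. Hoxa3 remained first, and 9 of the 10 highest members stayed among the 10 highest, when the longest transcript replaced the union of exons as the length. Besides Hoxa3, taken up below, genes on the other strand cover 52.93% of the exon bases of Hoxb3 and 27.32% of Hoxb2. They cover 20.38% of Hoxa7, 16.0% of Hoxa4 and 34.98% of Hoxa11. A gene on the same strand covers 15.04% of Hoxa2. The use of strand in the counting is not given, so these levels and ranks may include reads of the other genes.

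Lower in the order, Hoxc6 (2.49 ± 0.96), Hoxb8 (2.48 ± 0.24), Hoxc10 (2.39 ± 0.73), Hoxa6 (2.17 ± 0.88) and Hoxa10 (1.61 ± 0.31) overlapped one with the next. Hoxc10, a gene of the lumbar level, stood above both of its neighbours, with Hoxc9 at 0.25 times its level per length in Control. Hoxc5 (1.15 ± 0.38), Hoxa9 (0.98 ± 0.11), Hoxc4 (0.93 ± 0.30), Hoxd8 (0.93 ± 0.16), Hoxc8 (0.83 ± 0.35), Hoxb9 (0.78 ± 0.15), Hoxd4 (0.62 ± 0.18), Hoxc9 (0.60 ± 0.16) and Hoxd9 (0.50 ± 0.06) overlapped one with the next. Hoxa11, a gene of limb and urogenital patterning, closed the tested members at 0.34 ± 0.12 CPM per kb, above 9.21% of tested protein-coding genes. Summed by paralog group, the Control level was 8.55 in group 2 and 10.8 in group 3, lay between 8.29 and 10.3 in groups 4 to 7, and was 4.23 in group 8, 2.86 in group 9, 4.01 in group 10, 0.56 in group 11, 0.14 in group 12 and 0.20 in group 13. Of the paralog groups above the first, 11 had a count in every library, and all 11 had the same leading member in the Control and the iSM KO means, while 6 had it in each of the 6 libraries. HoxA led groups 3, 5 and 7 (Hoxa5 at 1.81 times Hoxb5) and HoxB groups 6 and 8 (Hoxb8 at 2.68 times Hoxd8), while HoxC led group 10. Hoxb2 and Hoxa2, and Hoxb4 and Hoxa4, were close to even, at 1.08 and 1.10 times, and Hoxa9 led its group in 4 of 6 libraries.

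HoxB, HoxC and HoxD each ended in a step between adjacent genes, and the steps stood at different numbers. In HoxD, Hoxd9 had 34, 47 and 23 counts in the Control libraries and 47, 24 and 37 in the iSM KO libraries. Hoxd10, whose body ends 2621 bp upstream of Hoxd9, had 1, 2 and 0 counts and 1, 3 and 0 counts. Per length, Hoxd9 was 29.5 times Hoxd10 in Control (95% counting interval 9.81 to 145) and 23.0 times in iSM KO, and the first exceeded the second in all 6 libraries. In HoxB, the 198 Control counts of Hoxb9 faced 0 for Hoxb13, at least 56.6 times per length against a floor of 3 counts over the group, across a gap of 74009 bp. In HoxC the step lay at Hoxc10, which was 11.7 times Hoxc11 in Control and 8.59 times in iSM KO. HoxA fell in more than 1 step. From Hoxa7 to Hoxa9 the level per length fell by 5.93 times in Control and 6.23 times in iSM KO. The Control counts of these 2 genes were 1615 and 528, over 2876 and 5580 bp of exon. The level then rose, with Hoxa9 at 0.623 times Hoxa10 in Control and 0.498 times in iSM KO. From Hoxa10 to Hoxa11 it fell by 4.83 and 5.93 times. At the anterior end Hoxb1 had 0 counts beside 1506 Control counts of Hoxb2, and Hoxd1 had 0 and Hoxd3 4 beside 177 of Hoxd4.

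The upstream sequence of 4 genes is shown, for genes of high level and for genes at or near 0 in the same tissue: Hoxa5, among the highest members, Hoxb1, at 0, and Hoxd9 and Hoxd10, on either side of the HoxD step. The bases lie before the transcription start in RefSeq (GRCm38.p6) and in GENCODE, and are written 5′ to 3′ on the gene's strand with every CG pair, the target of CpG methylation and a mark of CpG islands, in capitals.
Hoxa5, chr6:52204588-52204837, minus strand: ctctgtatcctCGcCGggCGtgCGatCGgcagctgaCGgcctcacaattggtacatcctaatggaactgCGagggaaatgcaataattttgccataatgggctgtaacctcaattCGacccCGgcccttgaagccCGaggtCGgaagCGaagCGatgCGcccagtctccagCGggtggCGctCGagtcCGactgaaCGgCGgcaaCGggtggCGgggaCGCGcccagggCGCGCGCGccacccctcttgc
Hoxb1, chr11:96365508-96365751, plus strand: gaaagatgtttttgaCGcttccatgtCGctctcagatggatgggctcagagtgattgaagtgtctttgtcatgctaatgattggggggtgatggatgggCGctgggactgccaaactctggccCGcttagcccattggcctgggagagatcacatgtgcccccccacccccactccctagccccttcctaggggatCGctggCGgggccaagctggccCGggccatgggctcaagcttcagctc
Hoxd9, chr2:74697513-74697726, plus strand: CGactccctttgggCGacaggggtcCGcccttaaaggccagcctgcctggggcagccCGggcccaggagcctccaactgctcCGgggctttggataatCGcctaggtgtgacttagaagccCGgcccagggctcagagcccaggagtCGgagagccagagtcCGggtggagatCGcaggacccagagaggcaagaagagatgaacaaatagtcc
Hoxd10, chr2:74691641-74691890, plus strand: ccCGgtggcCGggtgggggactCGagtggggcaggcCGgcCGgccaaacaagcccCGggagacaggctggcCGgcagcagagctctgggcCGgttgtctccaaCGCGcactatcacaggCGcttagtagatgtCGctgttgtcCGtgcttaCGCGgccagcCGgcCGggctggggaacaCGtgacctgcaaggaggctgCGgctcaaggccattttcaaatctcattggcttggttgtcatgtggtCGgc

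In the 250 bases before the RefSeq start, Hoxa5 held 28 CG pairs, Hoxd10 20, Hoxd9 13 and Hoxb1 7. The stretches shown for Hoxb1 and Hoxd9 stop at the GENCODE start, after 244 and 214 bases, and hold 7 and 10 of these pairs. Hoxd10, near 0, thus held more than its counted neighbour Hoxd9, and Hoxb1, at 0, fewer than either. Windows were found for 22 of the 39 members (24 windows), with a median of 12.5 CG pairs against 6 over all 32851 windows of the genome, and for members with a test the median was 12 against 20 for members without one. The bipartite letters TGATNNAT, a motif of Pbx and Hox proteins bound as a pair, were searched on both strands and found in 4 of the 24 Hox windows (16.7%) and in 7.68% of all windows. The Hoxb1 window held 1 match. A match of letters does not show binding.

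Taken over all 39 members, the summed Hox level overlapped between the groups, at 64.5, 75.3 and 69.2 CPM per kb in Control 1 to 3 and 69.5, 74.4 and 66.8 in iSM KO 1 to 3. HoxA held 43.0% to 46.4% of this sum in the 6 libraries and HoxB 36.5% to 42.1%. HoxC held 8.88%, 14.4% and 14.1% in Control and 12.7%, 16.1% and 12% in iSM KO, and HoxD 2.56% to 3.25%. The anterior groups 1 to 3 made up 34.8%, 26.9% and 24.8% in Control and 33.9%, 26.9% and 32.3% in iSM KO. The posterior groups 9 to 13 made up 9.54%, 12.6% and 11.1% in Control and 9.19%, 13.2% and 10.6% in iSM KO. Each range of 1 group overlapped that of the other. With the longest transcript as the length in place of the union of exons (6014 bp for Hoxa3), HoxA made up 50.1% in Control and 51.8% in iSM KO.

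**Figure D2:**
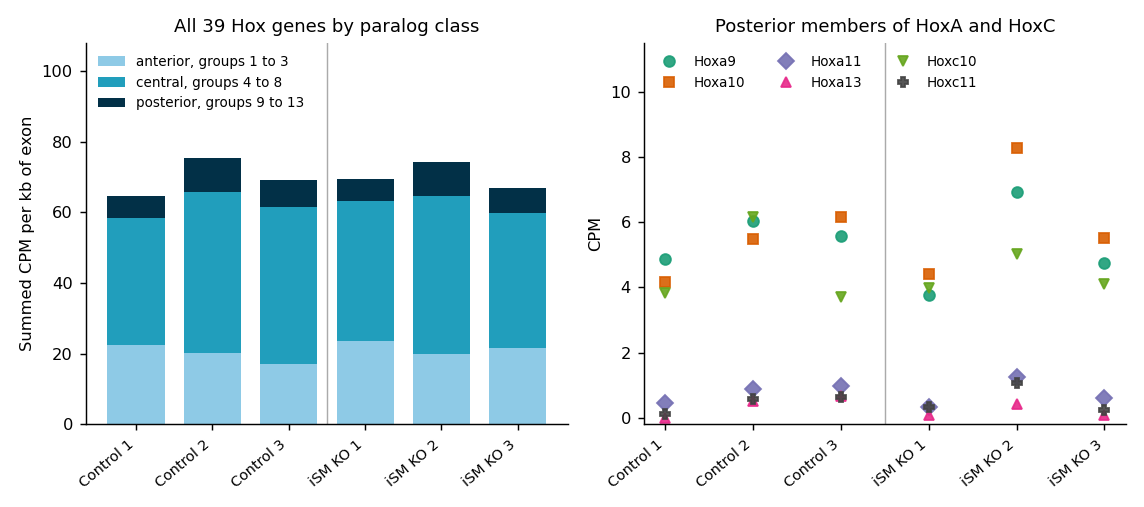
Left, summed level of the 39 Hox genes in each library, in CPM per kb of exon, split into anterior, central and posterior paralog groups. Right, CPM of 6 posterior members of HoxA and HoxC in each library (symbols). The anterior part is larger in Control 1, iSM KO 1 and iSM KO 3, where Hoxa11, Hoxa13 and Hoxc11 are lowest.

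Libraries of the same genotype differed in 3 posterior members by more than the group means did. Hoxa11 was at 0.45, 0.89 and 0.96 CPM in Control 1 to 3 and at 0.32, 1.26 and 0.60 CPM in iSM KO 1 to 3. Hoxa13, which patterns the limb end and hindgut, was at 0, 0.52 and 0.67 CPM in Control and at 0.0736, 0.43 and 0.0821 CPM in iSM KO. Hoxc11 was at 0.12, 0.57 and 0.63 CPM in Control and at 0.34, 1.06 and 0.25 CPM in iSM KO. For these 3 genes Control 1, iSM KO 1 and iSM KO 3 were the lower libraries and Control 2, Control 3 and iSM KO 2 the higher ones, a pattern noticed after the values were seen and given no test. The antisense RNA Hotair, from the interval between Hoxc11 and Hoxc12, followed it with 1, 4 and 6 counts in Control and 1, 6 and 0 in iSM KO. The anterior share ran the other way, at 32.3% to 34.8% in the first 3 libraries and 24.8% to 26.9% in the others. Each genotype had libraries of both kinds.

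Control 1 also stood below the other libraries in HoxC, with 5.73 CPM per kb for the cluster against 8.01 to 12 in the other 5. Hoxc6 was at 3.34, 7.03 and 7.63 CPM in Control 1 to 3 and at 6.70, 7.28 and 5.26 in iSM KO. Hoxc8 was at 1.22, 3.10 and 2.73 CPM in Control and at 2.94, 3.70 and 2.27 in iSM KO. In the same library the 6 fibroblast markers summed to 200 CPM against 72.9 to 136 CPM elsewhere. The adipocyte sum was 4.90 CPM in Control 1 against 54.3 and 51.8 in the other Control libraries. In iSM KO 1 to 3 it was 4.76, 2.24 and 4.65 CPM, beside 8.01 to 12 CPM per kb for HoxC. The part of these cells in the HoxC values was not tested.

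No Hox gene passed an adjusted p of 0.05 between iSM KO and Control. The count was 0 of 27 in each of edgeR, DESeq2 and limma-voom, and 1 member was at an unadjusted p under 0.05 in each, which with edgeR was 22.1% of all 16565 tested genes. Of all tested genes, 7.56% (1252) passed the adjusted threshold and 2.78% (461) passed it with a fold over 2. Log2 fold changes (iSM KO over Control) of the 27 members ran from -0.27 for Hoxa6 to 0.56 for Hoxc9 with a median of -0.03, 12 above 0 and 15 below, beside a median of -0.01 over all genes. The median was 0.08 for the 5 tested anterior members, -0.03 for the 15 central and -0.08 for the 7 posterior members. With 1 library left out, Hoxa6 ran from -0.57 (without Control 1) to -0.03 (without Control 2) and Hoxc9 from 0.22 (without iSM KO 2) to 0.82 (without Control 2). The 95% interval lay within a 2-fold difference in either direction for 21 members (77.8%) and for 75.2% of all tested genes. It extended past 2-fold for Hoxa6, Hoxa11, Hoxc4, Hoxc8, Hoxc9 and Hoxd4, and for these a 2-fold difference was not excluded by the interval. In counts simulated at these depths, edgeR recovered 65% of genes changed by a log2 fold of 1 and 93% of those changed by 2. The changed genes were drawn from all tested genes, so these shares are not specific to Hox genes. The median half-width of the interval was 0.507 for Hox genes and 0.328 for all tested genes.

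**Figure D3:**
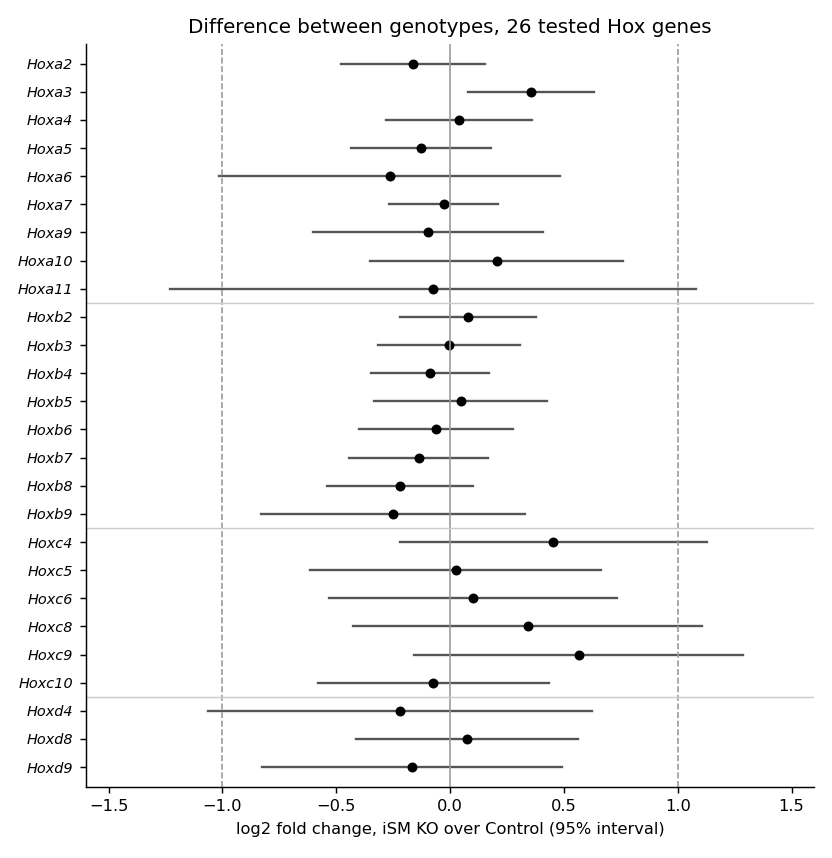
Log2 fold change of 26 tested Hox genes, iSM KO over Control, as the edgeR estimate (points) with its 95% interval (lines), in cluster order. Dashed lines mark 2-fold differences. The Hoxa3 interval, 0.08 to 0.63, is the one that does not include 0, and its adjusted p (edgeR) is 0.129.

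Hoxa3 was the member with the smallest p. It was at 42.9, 43.3 and 32.3 CPM in Control and at 55.9, 47.1 and 48.9 CPM in iSM KO, so that the groups did not overlap, as was the case for 27.9% of all tested genes and for no other member. The log2 fold change was 0.36 ± 0.12 (SE; 95% interval 0.08 to 0.63; unadjusted p = 0.0177, adjusted p = 0.129 with edgeR and 0.082 with DESeq2). Without Control 3, its lowest library, the log2 fold change was 0.23 and the adjusted p 0.221. Hoxa3 lies at chr6:52169062-52213336, which contains Hoxa4, Hoxa5 and Hoxa6 within its span. Genes on the other strand overlap 25.4% of its exon bases, and whether the counting used strand is not given in the sources used here. One of these antisense genes, 5730596B20Rik, was at 9.76, 10.2 and 11.9 CPM in Control and at 15.6, 13.8 and 12.2 CPM in iSM KO, without overlap of the groups. Its log2 fold change of 0.39 ± 0.13 (SE) was close to that of Hoxa3 and did not pass the adjusted threshold either (adjusted p = 0.115, edgeR). The shares of reads from each strand cannot be told apart.

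Elsewhere in HoxA, the well-counted members lay close to equality. Hoxa7, at 16.7, 18.3 and 14.8 CPM in Control and 16.3, 17.2 and 15.3 CPM in iSM KO, had a log2 fold change of -0.03 with the narrowest interval of the members, -0.27 to 0.21. Hoxa5 was at 9.28, 12 and 9.73 CPM in Control and 10.1, 9.89 and 8.43 CPM in iSM KO (log2 fold change -0.13). For Hoxa7 the iSM KO libraries lay inside the range of the Control libraries, and for Hoxa5 the groups overlapped in part. Other HoxA values were -0.16 for Hoxa2, 0.04 for Hoxa4, -0.27 for Hoxa6, -0.10 for Hoxa9, 0.21 for Hoxa10 and -0.08 for Hoxa11.

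HoxB log2 fold changes ran from -0.25 to 0.08, with all 8 intervals within 2-fold. Hoxb6 was at 9.22, 10.8 and 13 CPM in Control and 10.7, 11.7 and 9.12 CPM in iSM KO (-0.06), and Hoxb3 at 21.6, 17.3 and 14.5 CPM and 18.1, 17 and 18.2 CPM (-0.01). The Control libraries of Hoxb3 spread over more than the iSM KO libraries, which lay inside their range. Hoxb8 had the lowest unadjusted p of the cluster, 0.154, at 5.82, 6.77 and 7 CPM in Control and 6.18, 5.22 and 5.39 CPM in iSM KO (-0.22). Hoxb2 (0.08), Hoxb4 (-0.09), Hoxb5 (0.05), Hoxb7 (-0.14) and Hoxb9 (-0.25) made up the rest.

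In HoxC, 5 of 6 tested members were above 0, with intervals that all included 0. Hoxc9 was at 1.19, 1.90 and 1.26 CPM in Control and 1.79, 3.09 and 1.62 CPM in iSM KO, a log2 fold change of 0.56 ± 0.32 (adjusted p = 0.340, edgeR). Hoxc4 was at 1.61, 2.42 and 3.14 CPM and 2.65, 4.41 and 2.71 CPM, a log2 fold change of 0.45 ± 0.30 (adjusted p = 0.409, edgeR). In both genes iSM KO 2 was the highest library and Control 1 the lowest. The other values were 0.02 for Hoxc5, 0.10 for Hoxc6, 0.34 for Hoxc8 and -0.07 for Hoxc10. Without Control 1, the log2 fold change was 0.44 for Hoxc9, 0.24 for Hoxc4, 0.03 for Hoxc8, -0.22 for Hoxc5 and -0.19 for Hoxc6. Without iSM KO 2 it was 0.22 for Hoxc9 and 0.17 for Hoxc4. Hoxc5 and Hoxc10 share a run of 168 identical bases in their annotated transcripts, so reads from it could be split between them.

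HoxD had 3 tested members, with log2 fold changes of -0.22 for Hoxd4, 0.07 for Hoxd8 and -0.17 for Hoxd9. Hoxd4 was at 1.28, 2.32 and 1.89 CPM in Control and 0.81, 2.01 and 1.92 CPM in iSM KO. It shares 388 identical bases with Hoxd3, and 52.3% of its exon bases overlap other genes on its own strand, so its counts and the 4 and 30 counts of Hoxd3 in Control and iSM KO are uncertain. Of the members without a test, Hoxc12 had 0, 8 and 5 counts in Control and 0, 0 and 0 in iSM KO. At these counts no difference could be called for either gene, and with no filter on low counts their adjusted p (edgeR) was 0.113 for Hoxc12 and 0.201 for Hoxd3. Between clusters the longest identical run was 52 bases (Hoxa6 and Hoxb4), and the median over 569 pairs was 15.

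**Figure D4:**
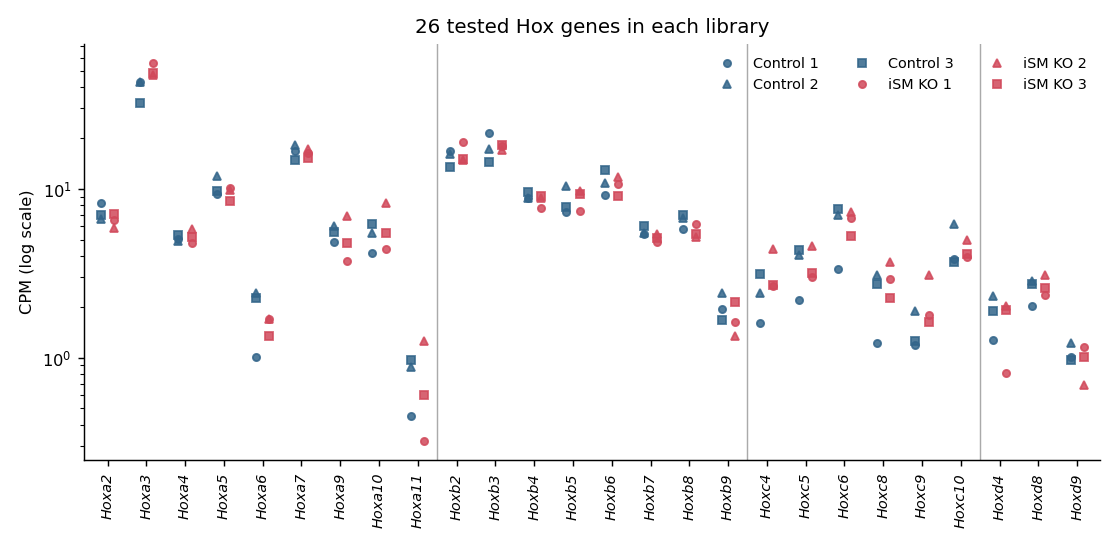
CPM of 26 tested Hox genes in each of the 6 libraries on a log axis, Control in blue and iSM KO in red, with vertical lines between clusters. The symbols of the groups interleave for all members shown but Hoxa3, and Control 1 (blue circles) lies lowest for Hoxc6 and Hoxc8.

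Between the outermost Hox genes of the clusters lie 44 genes that do not code for protein, and 11 of them were counted highly enough to test. None passed the adjusted threshold with edgeR, DESeq2 or limma-voom, and 1, 5730596B20Rik, was at an unadjusted p under 0.05. Over all tested genes these shares were 7.56% and 22.1% with edgeR. Hotairm1, a long noncoding RNA of the HoxA cluster, was at 3.46, 2.86 and 4.61 CPM in Control and 2.60, 3.09 and 3.04 CPM in iSM KO (log2 fold change -0.32 ± 0.21, adjusted p = 0.427, edgeR). Hoxaas2, which runs against Hoxa3, was at 7.41 ± 0.93 CPM in Control and 7.15 ± 0.91 CPM in iSM KO. The 7 annotated miRNA genes of the clusters had at most 2 counts in a library. No selection of small RNA is described for these libraries, so the counts do not give levels of mature miRNA.

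Outside the clusters, the 5 nearest tested protein-coding genes on each side were looked at, 40 in all, and 1 passed, beside 7.56% of all tested genes. Tril, which encodes a membrane partner of Toll-like receptors and lies 1554588 bp beyond HoxA, was at 7.25, 8.56 and 6.46 CPM in Control and 13.9, 17.9 and 17.4 CPM in iSM KO. Its log2 fold change was 1.14 ± 0.15 (adjusted p = 0.00212, edgeR), and it passed without each library in turn. The nearest of the 40 tested genes were Mtx2, 60661 bp from HoxD, at 6.55 ± 0.55 and 6.51 ± 0.41 CPM, and Lnpk, 88875 bp from its other end, at 8.15 ± 1.61 and 7.62 ± 0.48 CPM. In both genes the groups overlapped, with log2 fold changes of -0.01 for Mtx2 and -0.10 for Lnpk.

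Of 8 DNA-binding partners of Hox proteins looked at, 7 were tested and 1, Meis3, passed, beside 7.56% of all tested genes. It rose by less than 2-fold. Meis3, a TALE homeodomain protein that binds DNA together with Hox proteins, was at 12.4, 12.9 and 12.1 CPM in Control and 17.3, 16.6 and 18 CPM in iSM KO. The groups did not overlap, as was the case for 27.9% of all tested genes. The log2 fold change of Meis3 was 0.47 ± 0.09 (adjusted p = 0.0142, edgeR; 0.0582 without iSM KO 1, 0.0589 without iSM KO 2 and 0.0643 with the replicate number as a block). Meis1, at 43.1 CPM in Control and 42.6 CPM in iSM KO, had a log2 fold change of -0.02 (95% interval -0.21 to 0.18), and Meis2 one of 0.09 (-0.15 to 0.33). Pknox2, at 19 and 22.4 CPM, had one of 0.23 (-0.06 to 0.52), which did not pass. The remaining members did not pass or were too low to test.

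**Figure D5:**
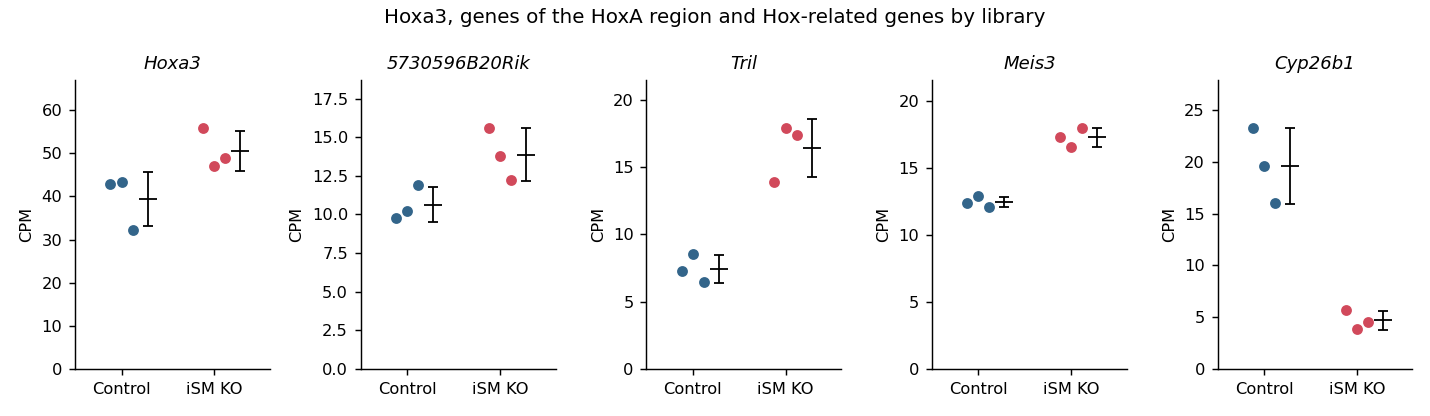
CPM by library (points) with mean and SD (bars, n = 3) for Hoxa3, its antisense neighbour 5730596B20Rik, the HoxA-flanking gene Tril, the Hox partner Meis3 and the retinoic acid hydroxylase gene Cyp26b1. The groups are separate in all 5 panels, while Hoxa3 and 5730596B20Rik did not pass the adjusted threshold.

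The chromatin regulators that hold Hox states showed no called change. None of the 34 Polycomb genes passed with edgeR, DESeq2 or limma-voom, and 5 were at an unadjusted p under 0.05 with edgeR (4 with DESeq2, 6 with limma-voom), beside 7.56% and 22.1% of all tested genes with edgeR. The highest were Cbx6 (log2 fold change 0.09), Phc3 (0.04) and Rbbp4 (0.24, adjusted p = 0.126, edgeR). None of the 12 Trithorax and H3K27 demethylase genes passed with the 3 tools either, while 2 were at an unadjusted p under 0.05 in edgeR and in limma-voom and 0 in DESeq2. Kmt2a, the methyltransferase that maintains Hox expression, was at 203, 200 and 171 CPM in Control and 215, 206 and 213 CPM in iSM KO (0.14), and Ash1l (0.05) and Kdm6b (0.10) were the next highest.

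Among 24 genes of retinoid metabolism and axial patterning, 14 were tested and 1 passed with edgeR, beside 7.56% of all tested genes. It was Cyp26b1, which fell. This enzyme clears retinoic acid, and its counts were 23.3, 19.6 and 16.0 CPM in Control and 5.69, 3.87 and 4.52 CPM in iSM KO. The log2 fold change was -2.06 ± 0.18 (adjusted p = 0.000318, edgeR). It belongs to the genes that the study called on these same samples, so its place in the list is not independent evidence. Rxra (-0.02), Dhrs3 (-0.53, adjusted p = 0.117, edgeR) and Rbp4 (-0.17), the 3 highest of these genes, did not pass, although Dhrs3 did with DESeq2 (adjusted p = 0.0317). Egr2, a hindbrain transcription factor gene, was at 4.06, 8.38 and 2.14 CPM in Control and 11.9, 12.4 and 13.3 CPM in iSM KO, and passed with limma-voom (adjusted p = 0.0326) but not with edgeR (0.0628). At an unadjusted p under 0.05 were 7 of the 14 in each tool, beside 22.1% of all tested genes with edgeR. The Cdx genes, which drive posterior Hox genes in the embryo, had at most 2 counts in a library. In the transcription factors of other regional programs, 18 of 27 were tested and none passed with edgeR or limma-voom. With DESeq2 1 passed, Gata4, which was tested only through its iSM KO counts. In each tool 5 were at an unadjusted p under 0.05. Over all tested genes the shares with edgeR were 7.56% past the adjusted threshold and 22.1% at an unadjusted p under 0.05. Foxc1 (log2 fold change -0.06), Gata6 (0.23, adjusted p = 0.115, edgeR) and Foxc2 (0.14) were the highest, and Evx1 and Evx2, the genes beside the posterior ends of HoxA and HoxD, had 0 counts throughout.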

How the data were processed

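Total RNA of mouse aortas from 3 Control and 3 iSM KO mice was depleted of ribosomal RNA and sequenced as paired ends. The authors mapped and quantified the reads against the Ensembl mouse reference (mm10) with DRAGEN, after bcl2fastq per the labels, and deposited estimated counts per gene and library without normalization. The version of DRAGEN, the use of strand and the sharing of reads that match several genes are not given in the sources used here.

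Counts (10.9% to 12.2% of values not whole) were rounded. Genes with a count over 10 in all libraries of at least 1 group were kept (16565 of 55487), as in the study's methods. Differences were tested over all of them by the quasi-likelihood test of edgeR 4.0.16 (R 4.3.3), scaled by TMM and without covariates, and p-values were adjusted by Benjamini-Hochberg. CPM uses TMM-scaled library sizes. Positions and exon lengths came from GENCODE M21 on GRCm38, matched by Ensembl identifier for 55227 genes, and upstream sequences from RefSeq. Summaries used Python 3.11.15 with pandas 2.3.3 and SciPy 1.17.1. Alternatives were DESeq2 1.42.0, limma-voom (limma 3.58.1), DESeq2 size factors, no filter, filterByExpr, a replicate block, fits that omitted 1 library at a time and other gene lengths. The fits were tested on simulated data. With 3 against 3 libraries an exact permutation test cannot go below p = 0.1, so none was used. Libraries come from separate mice, and no pair within a group differed by as little as sampling noise (chi-square per degree of freedom 12.1 to 70.5).

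The Hox members and the gene lists were chosen with earlier results of these data known. Some genes are not reported here one by one, 1 tested Hox gene among them, which stays in sums and counts over the Hox genes, while those of other lists were left out of the lists. The remaining tested Hox genes are named, and from other lists the members past an adjusted p of 0.05 and the 3 highest by mean CPM. Other genes named (Hotair, 5730596B20Rik, Hotairm1, Hoxaas2, Mtx2 and Lnpk among them) were chosen after their values were seen.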

Additional observations from a re-analysis of the deposited data

How the results depend on the processing

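The count of Hox genes past an adjusted p of 0.05 was 0 under all 12 alternatives (DESeq2, limma-voom, DESeq2 size factors, no filter, filterByExpr, the replicate block and 6 fits that left out 1 library each), and the lowest adjusted p of any member was 0.0555, for Hoxa3 with no filter on low counts. Fits without 1 library give its group 2 samples that are assumed to vary like the others. Of 312 values of 26 members under the alternatives, 30 took the other sign, in 16 members whose main log2 fold change was at most 0.222 in size. With 1 library left out, log2 fold changes ran from -0.037 to 0.096 for Hoxa4, -0.198 to 0.000 for Hoxa5, -0.107 to 0.049 for Hoxa7, -0.372 to 0.087 for Hoxa9, -0.088 to 0.389 for Hoxa10, -0.731 to 0.288 for Hoxa11, -0.051 to 0.146 for Hoxb2, -0.130 to 0.160 for Hoxb3, -0.053 to 0.225 for Hoxb5, -0.168 to 0.062 for Hoxb6, -0.223 to 0.184 for Hoxc5, -0.185 to 0.295 for Hoxc6, -0.203 to 0.217 for Hoxc10, -0.436 to 0.096 for Hoxd4, -0.062 to 0.179 for Hoxd8 and -0.334 to 0.012 for Hoxd9. With 1 library left out, the count past the adjusted threshold ran from 516 (without iSM KO 2; 624 without iSM KO 1) to 1402 for all genes, from 290 (without iSM KO 2) to 528 for those with a fold over 2, from 1 to 3 for the flanking genes (3 without Control 2, 2 without Control 1), from 0 (without iSM KO 1 and without iSM KO 2) to 1 for the cofactors, from 0 to 1 for the Trithorax list (1 without Control 2) and from 1 to 3 for the retinoid list (3 without Control 2, 2 without Control 3). DESeq2 called 3 flanking, 2 retinoid and 1 regional gene, limma-voom 2 retinoid genes, and the fit with no filter 2 flanking, 4 retinoid and 1 regional gene. With the longest transcript as the length, HoxA, HoxB and HoxD made up 50.1%, 35.2% and 2.55% of the Hox level in Control and 51.8%, 32.8% and 2.44% in iSM KO. The cause of these differences was not tested.

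Same-numbered libraries showed no positive correlation between their deviations from the group mean (-0.132, -0.0455 and -0.107). Such deviations sum to 0 over the 3 libraries of a group, so these values cannot exclude a pairing of the samples. With the replicate block 775 genes passed in all, 0 cofactors (Meis3 at an adjusted p of 0.0643, edgeR; 2 of 7 were at an unadjusted p under 0.05 without the block) and 2 retinoid genes, and Hoxb3 had a log2 fold change of 0.012. Low counts limit what can be said: 12 of 39 Hox genes were too low to test, and 6 of 27 intervals extended past 2-fold.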
